A study of Mus musculus with 3 samples.

Results

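Transforming growth factor beta (TGF-beta) genes were followed through the nuclei of mouse liver: the ligands Tgfb1, Tgfb2 and Tgfb3, the receptors Tgfbr1, Tgfbr2 and Tgfbr3, and the latent binding proteins Ltbp1, Ltbp2 and Ltbp4. These 9 genes were chosen by symbol from the 32285 genes of the count tables. No rule on measured values was used, but earlier results of these data were known. The tables come from single-nucleus RNA sequencing (sNuc-Seq) of frozen liver, with 1 library from each of 3 male C57BL/6 J mice. The ND mouse had a normal diet and is labelled normal. The 2 STZ-HFHC mice were injected under the skin with 0.2 mg of streptozocin (STZ), a toxin of the insulin-producing islet cells, at 3 days of age, were put on a diet rich in fat and cholesterol (HFHC) from 4 weeks of age, and are labelled as having liver fibrosis related to metabolic dysfunction-associated steatohepatitis (MASH). No genotype differed between the groups, the age at sampling of these mice is not given in the sources used here, and STZ and the diet cannot be told apart because no library carries only 1 of them. With a single ND mouse, ND has no spread between mice, so the comparison with ND carries no test. The sample titles give the ND library another code prefix than both STZ-HFHC libraries, and whatever it marks cannot be told apart from the condition.

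TGF-beta is secreted as a latent complex, in which the ligand stays folded into its propeptide and is tied to the extracellular matrix by a latent TGF-beta binding protein until integrins or proteases release it. The released ligand is bound by TGFBR2, which then recruits and phosphorylates TGFBR1, and the kinase of TGFBR1 activates SMAD2 and SMAD3, which enter the nucleus with SMAD4. TGFBR3, also called betaglycan, has no kinase and presents ligand to TGFBR2, above all TGF-beta 2, which binds TGFBR2 poorly by itself. In liver the pathway is known for driving hepatic stellate cells to deposit collagen and for restraining the growth of hepatocytes.

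On mm10 (GRCm38), Tgfb1 lies on chr7:25687002-25705077, Tgfb2 on chr1:186622792-186705989, Tgfb3 on chr12:86056745-86079041, Tgfbr1 on chr4:47353222-47414931, Tgfbr2 on chr9:116084293-116175360 and Tgfbr3 on chr5:107106570-107289629. Ltbp1 lies on chr17:75005568-75392512, Ltbp2 on chr12:84783212-84876532 and Ltbp4 on chr7:27305136-27337692, and all 9 genes are annotated as protein-coding. Promoters are shown for the 3 genes that were higher over all nuclei of both STZ-HFHC mice, since SMAD3 and SMAD4 bind the short word CAGAC, whose reverse complement is GTCTG. The windows come from RefSeq on GRCm38.p6, run from 250 bases before to 50 after the start of the gene and are written along its strand, with matches to either word in capitals. They are chr1:186705940-186706239 on the minus strand for Tgfb2, chr9:116175314-116175613 on the minus strand for Tgfbr2, and chr17:75005279-75005578 on the plus strand for Ltbp1, the window whose start lies nearest to the annotated start of the gene.
Tgfb2: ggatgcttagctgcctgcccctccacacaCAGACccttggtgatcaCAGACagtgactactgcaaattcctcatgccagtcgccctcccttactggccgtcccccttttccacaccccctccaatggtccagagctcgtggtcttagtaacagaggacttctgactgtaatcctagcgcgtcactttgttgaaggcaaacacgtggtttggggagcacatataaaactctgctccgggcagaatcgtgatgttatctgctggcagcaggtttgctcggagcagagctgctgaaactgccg
Tgfbr2: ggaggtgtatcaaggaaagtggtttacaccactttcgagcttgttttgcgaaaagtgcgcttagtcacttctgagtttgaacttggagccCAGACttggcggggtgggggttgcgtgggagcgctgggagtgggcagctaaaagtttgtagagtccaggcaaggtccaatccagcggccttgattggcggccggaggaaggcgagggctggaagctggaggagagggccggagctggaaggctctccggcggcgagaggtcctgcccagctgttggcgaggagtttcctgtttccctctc
Ltbp1: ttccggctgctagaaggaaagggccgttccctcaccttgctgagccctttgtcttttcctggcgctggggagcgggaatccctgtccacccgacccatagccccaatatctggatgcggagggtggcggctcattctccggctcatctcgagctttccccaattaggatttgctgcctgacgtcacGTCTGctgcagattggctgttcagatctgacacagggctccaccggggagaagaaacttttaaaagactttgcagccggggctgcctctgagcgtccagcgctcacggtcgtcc
The Tgfb2 window held 2 matches, the Tgfbr2 window 1 and the Ltbp1 window 1. Among the other members with a window, Ltbp2 held 3 matches and Tgfb1, Tgfbr1 and Ltbp4 held 0, and Tgfb3 and Tgfbr3 were not matched. Of all 32851 windows of 300 bases, 49.6% held the word on either strand and 16.2% held it 2 or more times, so a match is common and is given as a description only.

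A total of 28336 nuclei were kept, 8494, 8921 and 10921 from ND, STZ-HFHC 1 and STZ-HFHC 2, with a median of 4068, 3015 and 4027 unique molecular identifiers (UMIs, counts of captured RNA molecules). They formed 24 clusters, of which 21 were gathered by marker genes into 10 nuclei classes and 3 stayed unnamed. In the 9 non-hepatocyte classes each cluster passed the marker rule given below. Of the hepatocyte-like clusters only cluster 14 did, and clusters 1, 2, 3, 10, 16 and 23 were named by a weaker second rule. The conditions fell mostly into separate clusters within the hepatocyte, endothelial, stellate or fibroblast and macrophage-like classes. Hepatocyte RNA was present in all classes: in the 9 non-hepatocyte classes the summed level of 10 hepatocyte markers stood at 63.9% to 85.9% of that in hepatocyte-like nuclei in ND (median 79.8%), at 33.32% to 80.5% in STZ-HFHC 1 (median 55.0%) and at 55.4% to 89.3% for STZ-HFHC 2 (median 77.8%). A class with a larger share of such RNA has less room for its own, so each ratio to ND in these classes is also given after the hepatocyte-like profile of the same library, scaled to those markers, was subtracted. Levels are UMIs of a gene in a class and library, scaled so that every sum has the same total (CPM), with exact Poisson 95% intervals that cover counting error only, and they are compared between classes for 1 gene at a time. Where 3 values stand together they are those of ND, STZ-HFHC 1 and STZ-HFHC 2, in that order. Between 29 and 32 barcodes were shared by each pair of libraries.

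The 9 genes were caught at very different depth. Over the nuclei kept, Tgfbr1 had 23586 UMIs, Tgfbr2 11338 and Tgfbr3 9835, while Tgfb1 had 2804, Ltbp1 1550, Ltbp4 815, Tgfb2 744, Tgfb3 122 and Ltbp2 93. All 9 reached the 50 UMIs asked of a ratio over all nuclei, but by class only 47 pairs of gene and class did, and Tgfb3 and Ltbp2 reached it in none of the classes.

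**Figure D1:**
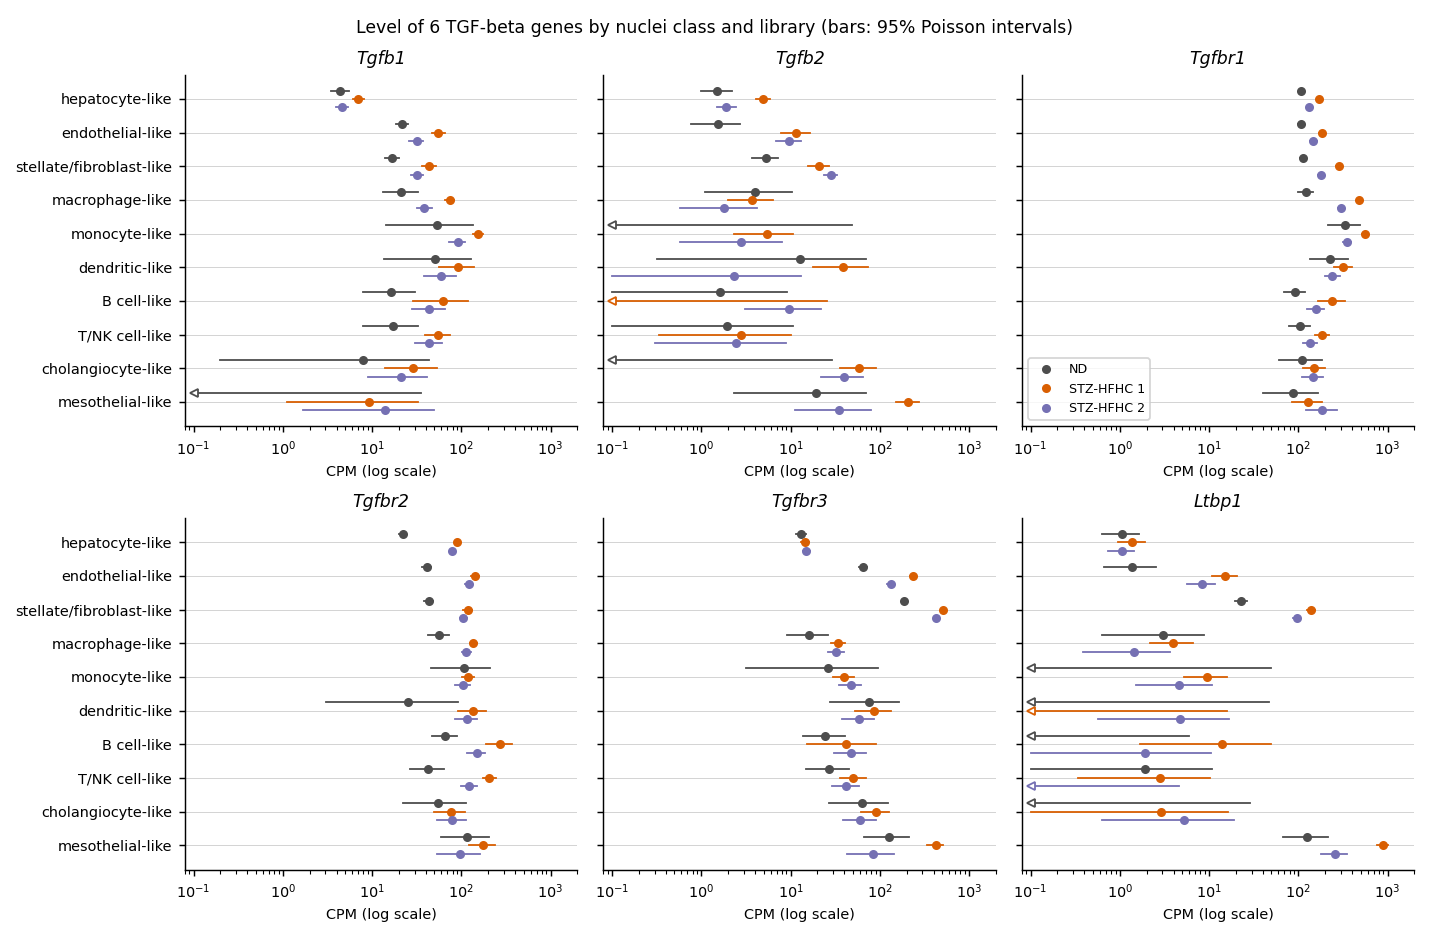
Level of 6 genes (CPM, log scale) in each nuclei class, with 1 point per library (grey ND, orange STZ-HFHC 1, violet STZ-HFHC 2) and exact Poisson 95% intervals, drawn from 0.1 CPM upwards, and open triangles at the left edge where no UMI was counted. Ltbp1 is highest in mesothelial-like nuclei and next in stellate or fibroblast-like nuclei in each library, Tgfbr3 is highest in stellate or fibroblast-like nuclei, and Tgfbr2 in hepatocyte-like nuclei lies at 22.0 CPM in ND against 88.4 and 79.1 CPM in the STZ-HFHC mice.

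Among the ligands, Tgfb1, the form that leukocytes and platelets are known to secrete, was highest in monocyte-like nuclei of every library. Its level there was 53.0 CPM in ND (interval 14.4 to 136, from 4 UMIs), 155 CPM in STZ-HFHC 1 (136 to 177) and 90.7 CPM for STZ-HFHC 2 (73.6 to 111). Dendritic-like nuclei followed at 50.5, 91.0 and 58.6 CPM, and the intervals of these neighbours in the order overlapped in all 3 libraries. B cell-like nuclei held 16.3, 62.1 and 43.8 CPM, T or NK cell-like nuclei 17.4, 54.7 and 43.3 CPM, and macrophage-like nuclei 21.2, 74.3 and 38.5 CPM. Endothelial-like nuclei (21.9, 55.3 and 31.6 CPM) and stellate or fibroblast-like nuclei (16.8, 43.6 and 32.0 CPM) held levels not separated from each other in any library. Hepatocyte-like nuclei stood lowest, at 4.40, 7.04 and 4.62 CPM, apart from the mesothelial-like nuclei with at most 2 UMIs in a library. Tgfb1 was thus spread over leukocyte and sinusoidal classes at higher levels than in hepatocyte-like nuclei.

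Which nuclei held most of the Tgfb1 UMIs differed between the libraries, as did the make-up of the libraries. In ND, endothelial-like nuclei held 36.1% of them and stellate or fibroblast-like nuclei 26.9%, while macrophage-like and monocyte-like nuclei held 4.79% and 0.913%. In STZ-HFHC 1 the latter 2 classes held 19.1% and 16.7%, and those of STZ-HFHC 2 held 10.8% and 9.83%. The unnamed clusters held 7.76%, 25.2% and 25.0% in the 3 libraries, more than any class in both STZ-HFHC mice. Hepatocyte-like nuclei held 13.5% in STZ-HFHC 1 and 16.2% in STZ-HFHC 2. Stellate or fibroblast-like nuclei held 8.91% and 16.2% there, and endothelial-like nuclei 10.7% and 12.5%. In STZ-HFHC 2 each of these 3 classes thus held more than macrophage-like nuclei. Macrophage-like nuclei numbered 244, 1335 and 897 and monocyte-like nuclei 39, 670 and 486 in the 3 libraries.

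Tgfb2 was highest by median in cholangiocyte and mesothelial-like nuclei. Mesothelial-like nuclei, which cover the liver surface, held 19.4 CPM in ND (2 UMIs), 206 CPM in STZ-HFHC 1 (45 UMIs) and 34.6 CPM for STZ-HFHC 2 (5 UMIs). Cholangiocyte-like nuclei, of the bile ducts, held 0 UMIs in ND, where 3 UMIs in the 32 nuclei would amount to 23.6 CPM, and 58.2 CPM (35.6 to 89.9) and 39.4 CPM (22.0 to 64.9) in the STZ-HFHC mice. Stellate or fibroblast-like nuclei held 5.26, 20.7 and 28.4 CPM from 37, 58 and 144 UMIs, endothelial-like nuclei 1.52, 11.7 and 9.60 CPM, and hepatocyte-like nuclei 1.503, 4.91 and 1.91 CPM. Dendritic-like nuclei were uneven at 12.6, 39.0 and 2.34 CPM, from 1, 9 and 1 UMIs. Because hepatocyte-like nuclei are so many, they still held 28.7%, 37.7% and 21.8% of all Tgfb2 UMIs.

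Tgfb3 was the scarcest ligand with 28, 50 and 44 UMIs in ND and both STZ-HFHC libraries. Mesothelial-like nuclei of the STZ-HFHC mice stood out with 45.8 CPM (10 UMIs) and 41.5 CPM (6 UMIs), the highest point value of the 10 classes in both mice. In ND they held 0 UMIs, where 3 UMIs would amount to 29.0 CPM. Stellate or fibroblast-like nuclei held 1.99, 2.15 and 4.54 CPM from 14, 6 and 23 UMIs, and no class gave enough UMIs for a ratio to ND.

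Of the receptors, the kinase receptor Tgfbr1 was found in every class and was highest in myeloid nuclei. Monocyte-like nuclei held 331 CPM in ND, 552 CPM in STZ-HFHC 1 and 354 CPM for STZ-HFHC 2, macrophage-like nuclei 121, 481 and 300 CPM, and dendritic-like nuclei 227, 321 and 241 CPM. Monocyte-like nuclei were separated from macrophage-like nuclei in 2 of 3 libraries. In hepatocyte-like nuclei the level was 106, 170 and 131 CPM. In ND the endothelial (107 CPM), stellate or fibroblast (112 CPM), T or NK cell (104 CPM) and cholangiocyte-like nuclei (110 CPM) stood at nearly the same level as hepatocyte-like nuclei, and subtraction of the hepatocyte-like profile took most of their Tgfbr1 UMIs, from 771 to 167, 786 to 235, 54 to 7.24 and 14 to 3.24.

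Tgfbr2, the receptor that first binds the ligand, had its highest median over the libraries in B cell-like nuclei at 65.2, 269 and 148 CPM. T or NK cell-like nuclei followed at 42.5, 206 and 122 CPM and endothelial-like nuclei at 41.1, 141 and 121 CPM. None of the 7 highest classes was separated from its neighbour in every library, and all of them lay between 96.8 and 269 CPM in the STZ-HFHC mice. At the bottom of the order stellate or fibroblast-like nuclei (43.4, 118 and 106 CPM) were separated from hepatocyte-like nuclei (22.0, 88.4 and 79.1 CPM) in 3 of 3 libraries. Cholangiocyte-like nuclei stood beside hepatocyte-like nuclei with 55.1, 75.7 and 78.7 CPM.

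Tgfbr3, the coreceptor betaglycan, was highest in stellate or fibroblast-like nuclei of every library. They held 186 CPM in ND (176 to 196), 509 CPM in STZ-HFHC 1 (483 to 537) and 423 CPM for STZ-HFHC 2 (405 to 441), above endothelial-like nuclei with 64.9, 235 and 132 CPM in 3 of 3 libraries. Hepatocyte-like nuclei held 13.0, 14.4 and 14.98 CPM, the lowest of the 10 classes. When every nucleus was thinned to 1000 UMIs, 23.0%, 41.3% and 38.3% of stellate or fibroblast-like nuclei had a Tgfbr3 UMI (57.7%, 72.3% and 65.6% before thinning), against 1.76%, 1.86% and 1.82% of hepatocyte-like nuclei (5.60%, 10.9% and 9.53% before thinning). Thinning left out 85, 31 and 47 stellate or fibroblast-like and 221, 14 and 26 hepatocyte-like nuclei, and their median depths before it were 4717, 2632.5 and 2402 UMIs against 3772, 7991 and 6556 UMIs. Mesothelial-like nuclei were uneven at 126, 422 and 83.0 CPM, from 13, 92 and 12 UMIs. Their intervals overlapped those of stellate or fibroblast-like nuclei in ND and STZ-HFHC 1, so no class led Tgfbr3 in every library.

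Among the binding proteins, Ltbp1, which ties latent TGF-beta to the matrix, was, as the only 1 of the 9 genes, led by a single class in every library. Mesothelial-like nuclei held 126 CPM in ND (67.0 to 215, 13 UMIs), 884 CPM in STZ-HFHC 1 (764 to 1018, 193 UMIs) and 256 CPM for STZ-HFHC 2 (180 to 353, 37 UMIs), and stellate or fibroblast-like nuclei held 23.0, 138 and 96.6 CPM. Both steps, from mesothelial to stellate or fibroblast-like nuclei and from these to endothelial-like nuclei (1.38, 15.04 and 8.33 CPM), were separated in 3 of 3 libraries. The lead of mesothelial-like nuclei was no longer separated in every library after thinning, with 36, 58 and 40 such nuclei in the libraries. Hepatocyte-like nuclei held 1.06, 1.37 and 1.06 CPM. After thinning, 3.34%, 14.2% and 10.2% of stellate or fibroblast-like nuclei had an Ltbp1 UMI (11.1%, 29.3% and 21.4% before it), against 0.136%, 0.203% and 0.148% of hepatocyte-like nuclei (0.486%, 1.15% and 0.780%).

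Ltbp4, which is known mainly for its part in assembling elastic fibres, was highest in mesothelial-like nuclei with 38.7, 142 and 62.3 CPM from 4, 31 and 9 UMIs. It was separated there from endothelial-like nuclei (11.4, 20.7 and 14.1 CPM) in 2 of 3 libraries, and the latter were not separated from stellate or fibroblast-like nuclei (13.1, 19.7 and 12.2 CPM) in any. Ltbp2, a matrix protein of the same family that is not known to bind latent TGF-beta, reached only 9, 15 and 9 UMIs in stellate or fibroblast-like nuclei, or 1.28, 5.36 and 1.78 CPM. No order of classes can be read from so few counts.

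**Figure D2:**
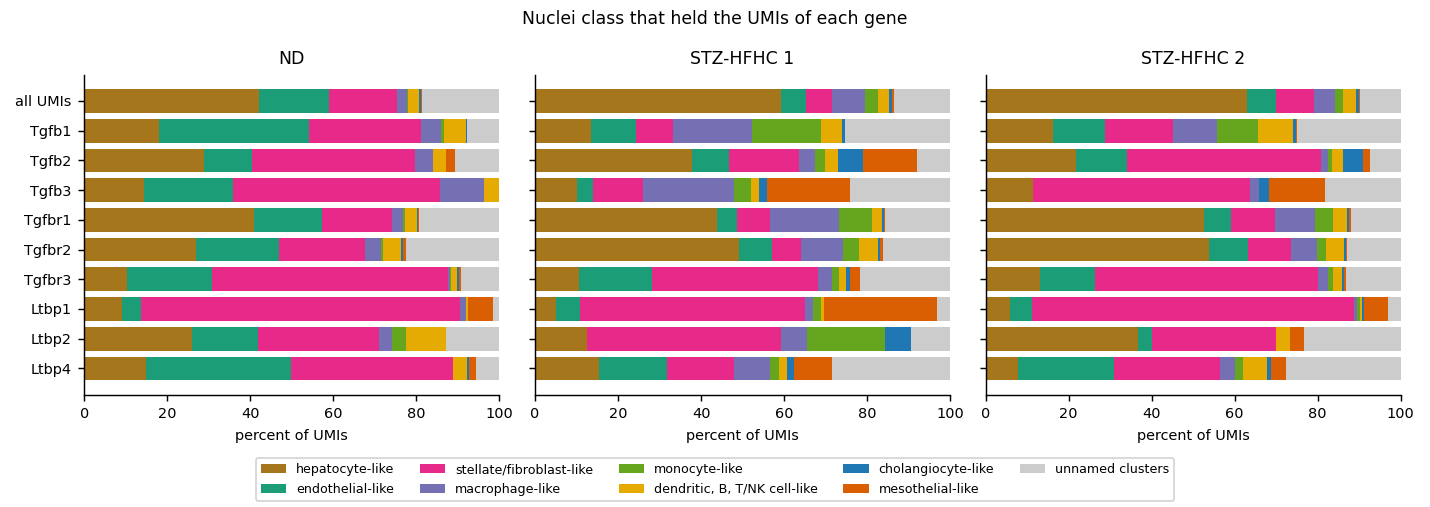
Percent of the UMIs of each gene, and of all UMIs in the top bar, that came from each nuclei class, with 1 panel per library. Stellate or fibroblast-like nuclei held 76.8% of Ltbp1 UMIs in ND, 54.3% in STZ-HFHC 1 and 77.8% for STZ-HFHC 2 with 16.5%, 6.31% and 9.11% of all UMIs, and hepatocyte-like nuclei held 26.8%, 49.2% and 53.8% of Tgfbr2 UMIs.

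As the plot of UMI sources shows, Ltbp1 and Tgfbr3 were counted mainly in stellate or fibroblast-like nuclei, while the UMIs of the other members were spread over more classes. Stellate or fibroblast-like nuclei held 56.9%, 40.1% and 53.9% of Tgfbr3 UMIs in ND, STZ-HFHC 1 and STZ-HFHC 2, and mesothelial-like nuclei held 27.2% of the Ltbp1 UMIs of STZ-HFHC 1 with 0.492% of all its UMIs. Hepatocyte-like nuclei held 40.9%, 44.0% and 52.5% of Tgfbr1 UMIs, beside 42.1%, 59.2% and 63.0% of all UMIs.

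The first comparison asked which of the 9 genes differed between fibrotic and normal liver over all nuclei. A gene was called higher when its log2 ratio to ND was at least 1 in both STZ-HFHC mice, and lower at -1 or below in both. By this rule 3 of 9 were higher and 0 were lower, beside 13.6% of 16829 genes higher and 4.74% lower. Tgfb2 stood at 2.20 CPM in ND, 7.71 in STZ-HFHC 1 and 5.54 for STZ-HFHC 2 (log2 ratios 1.80 and 1.33), and Tgfbr2 at 34.5, 106 and 92.5 CPM (1.63 and 1.42). Ltbp1 stood at 4.94, 15.99 and 11.3 CPM (1.69 and 1.19). For these 3 genes both STZ-HFHC mice lay above ND, and STZ-HFHC 1 above STZ-HFHC 2.

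Tgfb1 and Tgfbr1 passed in STZ-HFHC 1 only. Tgfb1 stood at 10.3, 30.9 and 17.9 CPM (log2 ratios 1.59 and 0.80) and Tgfbr1 at 109, 230 and 157 CPM (1.07 and 0.52), and without STZ-HFHC 2 the count of higher genes was 5. Tgfbr3 gave log2 ratios of 0.58 and 0.41, Tgfb3 0.77 and 0.26, Ltbp4 0.46 and -0.33 and Ltbp2 -0.01 and -0.43. The median of the 9 mean log2 ratios was 0.80, beside 0.18 over all genes. In these sums a shift in the share of a nuclei type and a shift in the RNA per nucleus cannot be told apart, so the same ratios were taken within each class.

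Within classes, 15 of 47 gene and class pairs were higher in both STZ-HFHC mice and 0 were lower, beside 5.65% to 14.4% of all genes higher and 3.5% to 8.22% lower, depending on the class. Tgfbr2 made up 7 of the 15, Tgfb2, Tgfbr3 and Ltbp1 2 each, and Tgfb1 and Tgfbr1 1 each. After subtraction of the hepatocyte-like profile 14 pairs were higher and 2 lower, of which 12 were among the 15, but subtraction also widened the background, to 11.5% to 23.1% of all genes higher and 18.3% to 29.4% lower in the 9 non-hepatocyte classes. When the members were instead scaled to the summed markers of their own class, 4 pairs were higher and 2 lower. The share of all genes was not taken on that scale, so these counts have no baseline. Own markers of the classes were often higher as well, since 8 of 12 stellate or fibroblast markers, 13 of 18 macrophage markers and 4 of 12 endothelial markers were higher in both STZ-HFHC mice in their own class, and 1 macrophage marker was lower. In hepatocyte-like nuclei 1 of 10 own markers was higher and 4 were lower, with a median log2 ratio of -0.91.

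**Figure D3:**
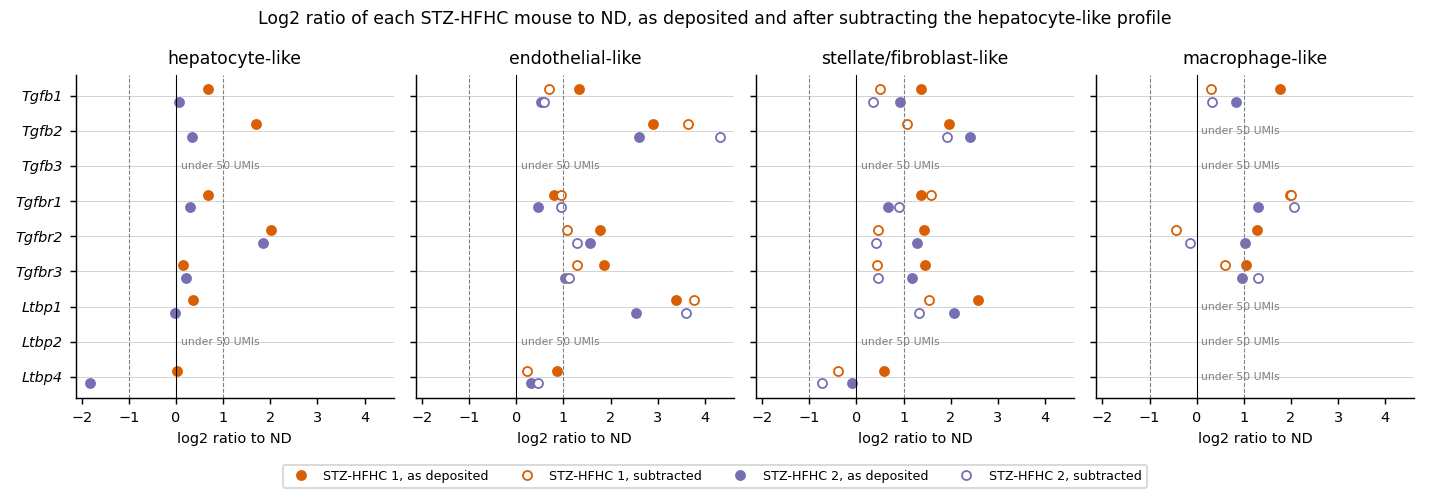
Log2 ratio to ND of each STZ-HFHC mouse for the 9 genes in 4 nuclei classes, as deposited (filled points) and after subtraction of the hepatocyte-like profile of the same library (open points, not defined for hepatocyte-like nuclei), with dashed lines at -1 and 1. Tgfbr2 in hepatocyte-like nuclei gave 2.01 and 1.84, endothelial-like nuclei kept their 4 high genes after subtraction, and Tgfbr2 and Tgfbr3 in stellate or fibroblast-like nuclei moved from above 1 to between 0.42 and 0.46.

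In hepatocyte-like nuclei the receptor Tgfbr2 was the only member called, beside 8.69% of 14655 genes higher and 5.89% lower. Its level was 22.0 CPM in ND (19.9 to 24.3, 395 UMIs), 88.4 CPM in STZ-HFHC 1 (84.8 to 92.1, 2322 UMIs) and 79.1 CPM for STZ-HFHC 2 (76.1 to 82.1, 2770 UMIs). Both STZ-HFHC mice lay far above the ND mouse and close to each other, with a fold of 4.02 (conditional exact 95% interval 3.61 to 4.48) and 3.60 (3.24 to 4.01) and a mean log2 ratio of 1.93 ± 0.11 (SD, n = 2 STZ-HFHC mice). The other kinase receptor, Tgfbr1, gave log2 ratios of 0.68 and 0.30, the coreceptor Tgfbr3 0.14 and 0.20, Tgfb1 0.67 and 0.07, and Ltbp1 0.36 and -0.02. Tgfb2 passed in STZ-HFHC 1 only, at 1.69 against 0.33, and Ltbp4 differed between the STZ-HFHC mice, at 0.02 and -1.83. The median over the 7 members with enough UMIs was 0.37, beside 0.09 over all genes.

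ND and STZ-HFHC nuclei lay in separate hepatocyte-like clusters, apart from cluster 23, so the Tgfbr2 levels of the clusters are set side by side. In ND the level was 20.03 CPM in cluster 2 (2980 nuclei), 28.5 CPM in cluster 14 (896 nuclei) and 31.1 CPM in cluster 23 (30 nuclei, 5 UMIs). In STZ-HFHC 1 the clusters 1, 3, 10, 16 and 23 held 85.0, 78.7, 93.8, 105 and 96.6 CPM, and those of STZ-HFHC 2 held 89.5, 61.5, 88.1, 99.6 and 61.4 CPM. No ND cluster reached the lowest STZ-HFHC cluster, though the interval of cluster 23 in ND (10.1 to 72.5) overlapped those of cluster 23 in STZ-HFHC 1 (58.1 to 151) and STZ-HFHC 2 (37.5 to 94.8). Unnamed cluster 8, which held 1517 ND nuclei led by Sgcz, Gm3734 and Pitx3 and hepatocyte markers at 78.7% of the hepatocyte-like sum, stood at 38.3 CPM (34.1 to 42.9). With cluster 8 counted as hepatocyte-like, Tgfbr2 was still called.

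**Figure D4:**
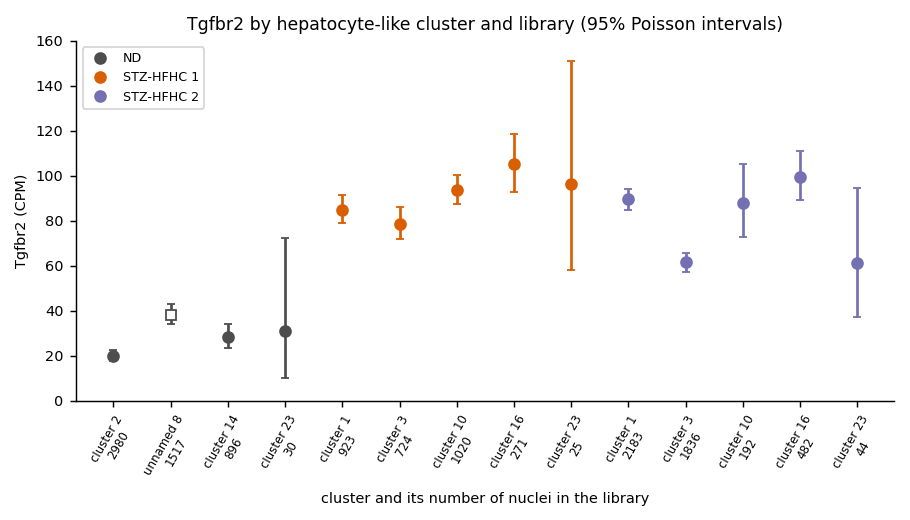
Tgfbr2 level (CPM) in each hepatocyte-like cluster of at least 20 nuclei in a library, with exact Poisson 95% intervals and the number of nuclei under each cluster (grey ND, orange STZ-HFHC 1, violet STZ-HFHC 2, open square the unnamed ND cluster 8). The ND values run from 20.03 to 38.3 CPM and the STZ-HFHC values from 61.4 to 105 CPM.

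Other cell types' RNA in hepatocyte-like nuclei was measured for the same comparison. The 12 endothelial markers summed to 301, 212 and 252 CPM there, or 13.7%, 4.09% and 7.82% of their level in endothelial-like nuclei, and 1 of 12 had a higher level, of any size, in both STZ-HFHC mice. At these shares endothelial RNA would carry 5.62, 5.78 and 9.46 CPM of Tgfbr2. The 18 macrophage markers summed to 189, 239 and 211 CPM with 12 of 18 at a higher level in both STZ-HFHC mice, which amounts to 7.46, 7.50 and 9.08 CPM of Tgfbr2 at their shares. The 12 T or NK cell markers summed to 25.9, 281 and 357 CPM, of which Themis made up 11.5, 261 and 328 CPM, while the other 11 summed to 14.4, 19.9 and 28.7 CPM. Tgfbr2 at the share of the T or NK cell markers with Themis included came to 1.21, 22.8 and 24.3 CPM. Summed over the 9 other classes, such amounts came to 24.8, 50.01 and 59.3 CPM, beside the 22.0, 88.4 and 79.1 CPM measured, and they include hepatocyte RNA held by those classes. The part of other cell types' RNA in the Tgfbr2 difference was not tested.

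Endothelial-like nuclei of the liver sinusoids and vessels had 4 higher members of the 7 with enough UMIs, beside 8.2% of 11703 genes higher and 5.26% lower. Tgfbr2 gave a fold of 3.44 (2.95 to 4.02) in STZ-HFHC 1 and 2.94 (2.54 to 3.41) for STZ-HFHC 2, and Tgfbr3 one of 3.61 (3.20 to 4.08) and 2.04 (1.80 to 2.31). The ligand Tgfb2 rested on 11, 31 and 38 UMIs, with a fold of 7.66 (3.75 to 16.9) and 6.30 (3.16 to 13.7), and Ltbp1 on 10, 40 and 33 UMIs, with 10.9 (5.34 to 24.4) and 6.02 (2.90 to 13.7). Both Tgfb2 and Ltbp1 passed the filter mainly on their STZ-HFHC counts. All 4 stayed called after subtraction, with log2 ratios of 1.07 and 1.29 for Tgfbr2, 1.28 and 1.12 for Tgfbr3, 3.65 and 4.31 for Tgfb2 and 3.77 and 3.60 for Ltbp1. Subtraction left only 2.45 ND UMIs of Tgfb2 and 3.98 of Ltbp1, so their subtracted ratios rest on very few ND counts. Per 100 UMIs of endothelial markers, Tgfbr2 stood at 1.87, 2.73 and 3.75, Tgfbr3 at 2.95, 4.54 and 4.10 and Tgfb2 at 0.0691, 0.225 and 0.298, and Tgfbr2 and Tgfbr3 no longer passed on that scale. Hepatocyte markers stood at 78.7%, 64.0% and 78.5% of the hepatocyte-like sum in this class.

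Much of the Tgfb2 and Ltbp1 of the endothelial-like class came from a small set of nuclei. Subcluster 7, led by Adamtsl1, Cyp1b1 and Col6a3, held 6, 32 and 56 nuclei. In the STZ-HFHC mice its Tgfb2 level was 140 CPM (15 of the 31 UMIs of the class) and 113 CPM (16 of 38), while the other endothelial-like subclusters held at most 12.6 CPM. Its Ltbp1 level was 196 CPM (21 of 40 UMIs) and 134 CPM (19 of 33), against at most 14.4 CPM elsewhere. With 6 ND nuclei, fewer than the 20 asked of a value, its ND level is not given.

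Stellate or fibroblast-like nuclei, the collagen-producing cells of the liver, also had Tgfb2, Tgfbr2, Tgfbr3 and Ltbp1 called, of 7 with enough UMIs and beside 12.8% of 12287 genes higher and 8.17% lower. Ltbp1 stood at 23.0 CPM in ND (19.6 to 26.9), 138 CPM in STZ-HFHC 1 (124 to 152) and 96.6 CPM for STZ-HFHC 2 (88.3 to 106), a fold of 5.97 (4.96 to 7.22) and 4.19 (3.50 to 5.04). Tgfb2 gave a fold of 3.94 (2.56 to 6.12) and 5.40 (3.74 to 7.97), Tgfbr3 of 2.74 (2.54 to 2.96) and 2.28 (2.12 to 2.44), and Tgfbr2 of 2.72 (2.32 to 3.19) and 2.44 (2.11 to 2.81). Tgfbr1 passed in STZ-HFHC 1 only (log2 ratios 1.36 and 0.68), as did Tgfb1 (1.38 and 0.93), and Ltbp4 gave 0.59 and -0.09. Hepatocyte markers in this class stood at 73.9%, 44.8% and 55.4% of the hepatocyte-like sum, so ND held the most hepatocyte RNA.

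After subtraction Ltbp1 (log2 ratios 1.54 and 1.34) and Tgfb2 (1.07 and 1.93) were still called, while Tgfbr2 (0.45 and 0.42) and Tgfbr3 (0.44 and 0.46) were not. Per 100 UMIs of stellate or fibroblast markers, Ltbp1 stood at 1.45, 2.71 and 2.28, Tgfb2 at 0.332, 0.408 and 0.670, Tgfbr3 at 11.7, 10.0 and 9.97, Tgfbr2 at 2.73, 2.32 and 2.49 and Ltbp4 at 0.825, 0.387 and 0.288. On that scale none of the 4 passed, and Tgfbr3 and Tgfbr2 lay slightly below ND in both mice. The choice of ND nuclei mattered as well. Without limits on genes and mitochondrial counts, only 139 ND nuclei, all among the 1192 above, were named stellate or fibroblast-like, and all 4 calls were lost. Ltbp1 then stood at 81.5, 152 and 103 CPM, Tgfb2 at 57.4, 23.1 and 32.4 CPM, Tgfbr3 at 661, 504 and 422 CPM and Tgfbr2 at 60.4, 103 and 90.3 CPM, with summed hepatocyte markers of 9216, 8812 and 11224 CPM. Ltbp1 was thus above ND in both mice under each of these treatments. The direction of Tgfb2 depended on which ND nuclei were taken, that of Tgfbr2 on the scale, and that of Tgfbr3 on both.

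Subclusters of this class are set side by side as a description only. Subcluster 9 consisted of 57 ND nuclei led by Fcna, Prelp and Ecm1 with hepatocyte markers at 36.1%, and subcluster 1 of 264 and 548 STZ-HFHC nuclei led by Ccl2, Col1a1 and Dclk1 with 27.8% and 36.8%. This pair was chosen after its values were seen. Tgfbr3 stood at 779 CPM in the former and at 778 and 663 CPM in the latter, and Ltbp1 at 68.0 CPM (11 UMIs, 34.0 to 122) against 238 and 171 CPM. Tgfb2 stood at 43.3 CPM (7 UMIs) against 27.1 and 53.0 CPM, Tgfbr2 at 68.0 CPM against 104 and 92.3 CPM, and Tgfbr1 at 86.6 CPM against 342 and 170 CPM. The main ND subcluster 3, with 655 nuclei and hepatocyte markers at 77.8%, held 179 CPM of Tgfbr3 and 27.2 CPM of Ltbp1. Subcluster 8, led by Itgbl1, Plcxd3 and Nkain3 and present in all libraries with 31, 23 and 34 nuclei, held Ltbp1 at 163, 115 and 124 CPM, levels not separated from each other.

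**Figure D5:**
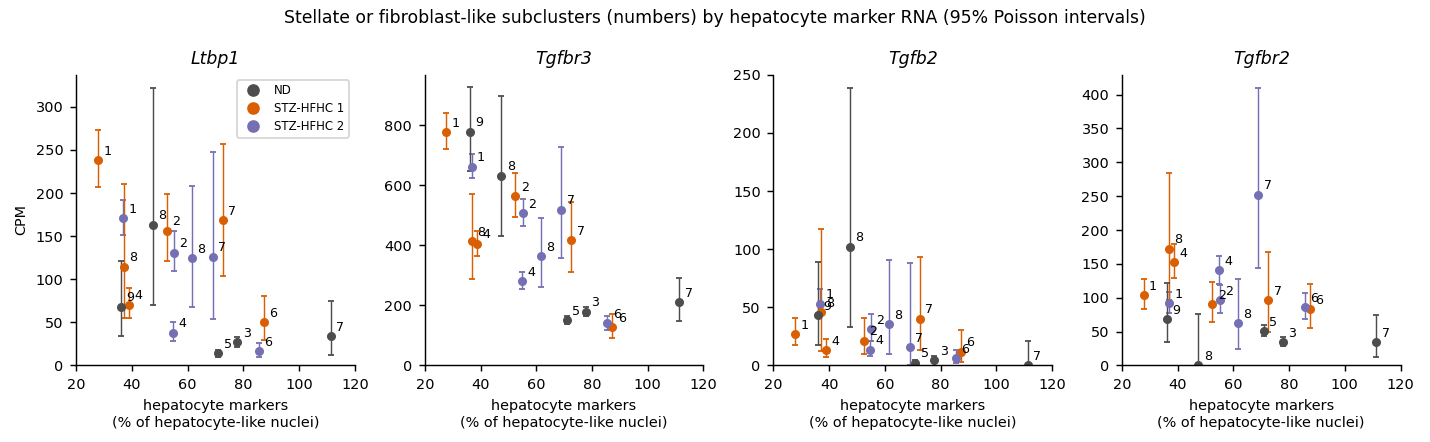
Level (CPM) of 4 genes in stellate or fibroblast-like subclusters (numbers beside the points) of at least 20 nuclei in a library, against the summed hepatocyte markers as a percent of hepatocyte-like nuclei of the same library, with exact Poisson 95% intervals. Tgfbr3 is high where hepatocyte markers are low in each library, with ND subcluster 9 at 779 CPM beside STZ-HFHC subcluster 1 at 778 and 663 CPM, while Ltbp1 in ND subcluster 9 lies at 68.0 CPM against 238 and 171 CPM.

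In macrophage-like nuclei 2 of the 4 members with enough UMIs were called, both receptors, beside 14.4% of 10187 genes higher and 5.37% lower. Tgfbr1 stood at 121 CPM in ND (100.5 to 145), 481 CPM in STZ-HFHC 1 (458 to 504) and 300.3 CPM for STZ-HFHC 2 (280.4 to 321), a fold of 3.97 (3.30 to 4.82) and 2.48 (2.04 to 3.03). It stayed called after subtraction (log2 ratios 1.99 and 2.07), but not per 100 UMIs of macrophage markers, where it stood at 8.60, 11.1 and 11.4. The call was also lost at Leiden resolution 0.5, where the ND class held 55 nuclei, 14 of them among the 244 above, and the levels were 303, 499.7 and 314 CPM. No class was named monocyte-like at that resolution. The macrophage-like cluster there was led by F13a1, Gpr141 and Gpnmb, and F13a1 and Gpr141 also led the monocyte-like cluster of the main setting. That class thus differed in make-up from the macrophage-like class above. Tgfbr2 gave log2 ratios of 1.28 and 1.02, which fell below 0 after subtraction (-0.44 and -0.15). Tgfb1 passed in STZ-HFHC 1 only, with 1.78 against 0.83, and gave 0.30 and 0.33 after subtraction. Hepatocyte markers stood at 85.9%, 55.0% and 78.1% of the hepatocyte-like sum, and ND macrophage-like nuclei formed clusters of their own.

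Within the macrophage-like class the receptor and the ligand were highest in different nuclei. Subcluster 3, led by Tmem267, Stac2 and Atp6v0d2, held the highest Tgfbr1 level in both STZ-HFHC mice, at 683 and 538 CPM. Subcluster 1, led by Gbp2b, Ms4a8a and Gm47448, held 515 and 403 CPM of Tgfbr1 and Tgfb1 at 99.9 and 76.6 CPM, against 76.5 and 47.6 CPM in subcluster 3. The 25 STZ-HFHC 1 nuclei of subcluster 6, led by Actb, Ear2 and Crip1, held 232 CPM of Tgfb1 (25 UMIs). ND subcluster 5, with 234 of the 244 ND nuclei and led by Serpina1e, Gm15622 and Bhmt, held 118 CPM of Tgfbr1 and 20.4 CPM of Tgfb1. Subcluster 4 had low levels of both (Tgfb1 24.0 and 14.9 CPM), with hepatocyte markers at 87.3% and 98.3% and 64.5% of its nuclei among the highest doublet scores.

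In the lymphoid and dendritic-like classes Tgfbr2 was called in each. T or NK cell-like nuclei held 22, 147 and 99 UMIs, a fold of 4.86 (3.09 to 7.99) and 2.88 (1.80 to 4.81), and B cell-like nuclei held 40, 39 and 78 UMIs, a fold of 4.13 (2.59 to 6.59) and 2.28 (1.53 to 3.42). Dendritic-like nuclei rested on 2 UMIs in ND against 31 and 49, a ratio of 5.32 (1.35 to 45.9) and 4.55 (1.19 to 38.6). This pair passed the filter on its STZ-HFHC counts. All 3 were also called after subtraction, which left 12.3, 28.9 and 0.648 ND UMIs of Tgfbr2 in T or NK cell, B cell and dendritic-like nuclei. The subtracted dendritic ratio thus has almost no ND count behind it. The T or NK cell call was lost after thinning, at Leiden resolution 0.5, with the mean of the CPM of nuclei and per marker UMI, with mean log2 ratios of 1.14, 0.84, 1.22 and 0.65, and the B cell call with the mean of the CPM of nuclei and per marker UMI (0.54). Tgfb1 was called in T or NK cell-like nuclei from 9, 39 and 35 UMIs, with log2 ratios of 1.60 and 1.26 (1.12 and 1.93 after subtraction), and its mean became -0.66 at a coarser clustering (Leiden resolution 0.5). It too passed the filter mainly on its STZ-HFHC counts. The share of all genes higher in both mice was 10.1% in T or NK cell-like, 5.65% in B cell-like and 8.1% in dendritic-like nuclei, and the share lower was 4.2%, 4.53% and 3.5%.

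No member was called in monocyte, cholangiocyte or mesothelial-like nuclei, where 11.9%, 9.27% and 7.51% of all genes were higher and 8.22%, 4.16% and 4.57% lower, nor in unnamed cluster 9, which held endothelial and macrophage markers together and had 10.2% higher and 9.13% lower. In monocyte-like nuclei Tgfbr1 gave log2 ratios of 0.71 and 0.07 (0.39 and 0.08 after subtraction) and Tgfbr2 0.09 and -0.11 (-0.81 and -0.83), from 25 and 8 ND UMIs. Cholangiocyte-like nuclei gave 0.39 and 0.44 for Tgfbr2, from 7 ND UMIs, and passed as lower only after subtraction (-1.59 and -1.32). In mesothelial-like nuclei Ltbp1 gave 2.76 and 0.99, short of the limit in STZ-HFHC 2 (1.05 and 0.12 after subtraction), and Tgfb2, with 2 UMIs in ND, a ratio of 10.7 (2.78 to 90.7) and 1.79 (0.293 to 18.8). In these nuclei STZ-HFHC 1 stood apart from STZ-HFHC 2 as well as from ND, with Tgfbr3 at 1.70 and -0.60, and it had the least hepatocyte RNA (79.9%, 33.32% and 63.2%).

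Beyond the 9 members, a list of 36 other TGF-beta pathway genes was followed with the same rule. Over all nuclei 35 had enough UMIs, of which 9 were higher in both STZ-HFHC mice and 1 lower, beside 13.6% and 4.74% of all genes, with a median log2 ratio of 0.56, beside 0.18 over all genes. The group for latency and storage held 4 of 5 higher genes: Ltbp3, another latent binding protein (log2 ratios 2.83 and 2.13), Nrros, which holds latent TGF-beta on myeloid cells (1.91 and 1.36), and the fibrillins Fbn1 (1.498 and 1.17) and Fbn2 (3.03 and 2.51). Of the activators 1 of 7 was higher, Thbs1, encoding thrombospondin 1 (2.97 and 2.80). Of the induced genes 3 of 6 were higher, Ccn2 (2.05 and 1.32), Acta2 (2.42 and 3.17, from 5, 30 and 64 UMIs) and Timp1 (1, 55 and 14 UMIs, a ratio of 53.0 with an interval of 9.12 to 2130 and of 10.7 with 1.63 to 454), and 1 was lower, Fn1, encoding fibronectin (-1.32 and -1.65). Acta2 and Timp1 passed the filter mainly on their STZ-HFHC counts. Of the 9 feedback genes Pmepa1 was higher (2.00 and 1.73). Among the 5 signal transducers 0 were called, as were 0 of the 3 genes grouped as coreceptors and receptor inhibitor, which include the type I receptor Acvrl1.

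In hepatocyte-like nuclei 3 of 29 pathway genes were higher and 1 lower, near the 8.69% and 5.89% of all genes. Pmepa1, a known target of the pathway that restrains it, held 57, 673 and 662 UMIs, a fold of 8.08 (6.16 to 10.8) and 5.96 (4.54 to 7.95). Ltbp3 (log2 ratios 2.55 and 1.75, from 4, 38 and 29 UMIs) and Fbn1 (1.103 and 1.20) were the others. Ltbp3 passed the filter mainly on its STZ-HFHC counts. Fn1, which hepatocytes make for the plasma, was lower at 16216, 9703 and 9827 UMIs, with log2 ratios of -1.29 and -1.69. None of the 5 signal transducers and 1 of the 9 feedback genes was called there.

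Stellate or fibroblast-like nuclei had 10 of 34 pathway genes higher and 1 lower, beside 12.8% and 8.17% of all genes, and 7 and 0 after subtraction, beside 11.5% and 18.3%. Thbs1 (log2 ratios 4.47 and 4.34, from 5, 48 and 80 UMIs) and Fbn2 (4.76 and 3.67, from 5, 59 and 50 UMIs) were among those that stayed. Acta2, the smooth muscle actin of activated stellate cells, held 2 UMIs in ND against 20 and 49, a ratio of 25.1 (6.10 to 222) and 34.0 (8.91 to 288). Here too Acta2 passed the filter mainly on its STZ-HFHC counts, as did Thbs1 and Fbn2. Ccn2, which encodes connective tissue growth factor, gave 2.37 and 2.03 and after subtraction 1.36 and 1.33. Fn1 was lower at -1.52 and -1.57, a call lost after subtraction.

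Endothelial-like nuclei had 9 of 28 pathway genes higher and 1 lower, beside 8.2% and 5.26% of all genes. After subtraction 8 were higher, 7 of them among the 9, and 2 lower, beside 14.6% and 18.4%. Fbn1 gave 4.17 and 3.43, Ccn2 4.39 and 2.85, the endothelial coreceptor Eng 1.80 and 1.17, Smad6, an inhibitory SMAD, 2.22 and 1.34, and Lrrc32, which anchors latent TGF-beta at the cell surface, 2.40 and 1.56, and all 5 stayed called. Pmepa1 (1.54 and 1.53) was among those that did not. Macrophage-like nuclei had 9 of 25 higher and 1 lower, beside 14.4% and 5.37% of all genes. After subtraction 6 were higher and 3 lower, beside 23.1% and 25.4%, and 3 of the 6 were among the 9, with Itgav, an integrin chain that frees latent TGF-beta (1.68 and 1.18), and Acvrl1, a type I receptor (2.04 and 1.83, from 4, 65 and 45 UMIs), among those kept and Nrros (1.75 and 1.11) and Tgfbi (2.11 and 1.26) among those lost. Acvrl1 passed the filter mainly on its STZ-HFHC counts. Signal transducers were called in neither class, while 2 of 5 were lower in macrophage-like nuclei after subtraction.

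The genes whose level was most like that of each member over the 30 sums by class and library were found among 13895 genes by Pearson's r on log2(CPM + 1). The sums share libraries, depth and hepatocyte RNA, so r is a description. Ltbp1 was nearest to the collagens Col3a1 (0.93) and Col1a1 (0.92) and to Slit3 (0.91), and Tgfbr3 to Prkg1 (0.94), Mir100hg (0.93) and Gja1 (0.92). Tgfbr1 was nearest to Psap (0.95), Ctsz (0.92) and Cbl (0.90), and Tgfb1 to Sh3kbp1 (0.94), Vav3 (0.93) and Pik3cd (0.92). Tgfbr2 (Ankib1 0.85, Smyd3 0.84, Eif2ak3 0.83) and Tgfb2 (Nbeal1 0.84, Zc3h12b 0.82, Gk5 0.79) had no partner above 0.86, and Ltbp4 was nearest to Filip1 (0.89), Sema3d (0.88) and Pla2r1 (0.88).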

How the data were processed

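Each library held UMI counts per gene and nucleus, which the authors made with Cell Ranger 7.0.1 on mm10 (per the labels) from 10x 3' v3.1 libraries and deposited without normalization; whether intronic reads were counted is not given in the sources used here. The files hold 30989 barcodes, equal to the number the study gives for its filtered nuclei, and its stated filter (at least 200 genes, at most 5000 genes, at most 5% mitochondrial counts, genes in at least 3 nuclei) left 28336 here. Nuclei of all libraries were clustered together with Scanpy 1.11.5 (2000 variable genes, 30 components, 15 neighbours, Leiden resolution 1), leaving the 9 members and 36 pathway genes out of clustering and naming. Clusters were called X-like when at least 3 markers and 33.3% of a fixed list stood 2-fold above the median of the other clusters. Levels were compared within the library holding most of the cluster, and a marker had to reach 5% of its nuclei. Clusters stayed unnamed if 5 or more of their 10 leading genes were mitochondrial, or if over 50% of a list of another, not related myeloid, class passed. They also did if another class held more leading genes. Cluster 7 (13, 990 and 578 nuclei) stayed unnamed by the first limit and cluster 9 by the second. A second pass named clusters with too few markers hepatocyte-like when at least 3 hepatocyte markers stood 1.1-fold above pooled nuclei of other classes. It named clusters 1, 2, 3, 10, 16 and 23, in which 7 to 9 of the 10 markers passed, while cluster 14 met the first rule. Scaling of the genes and thresholds of the naming rule were revised after clusters were seen, and rebuilt names can differ from the study's. Scrublet's automatic threshold marked 1 nucleus of all and so did not work. Doublets were therefore kept, and leaving out the highest 8% of scores is an alternative.

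UMIs were summed per class and library (at least 20 nuclei) as CPM with exact Poisson 95% intervals. Log2 ratios to ND had 0.5 added to each count and were called at 1 or more, or -1 or less, in both STZ-HFHC mice with at least 50 UMIs over the 3 libraries, and shares of nuclei were thinned to 1000 UMIs. A gene with few ND UMIs can pass this filter on its STZ-HFHC counts, where it is high. For ratios after subtraction the filter was still taken on the counts before it. There is 1 ND library, so no p-value is given, and p-values over nuclei were not computed. A gene was led by a class when its interval lay above those of all other classes in every library. Macrophage, endothelial and stellate or fibroblast-like nuclei were clustered again (1000 variable genes, 20 components, resolution 0.5). Named genes were the members, the pathway list, the 3 genes most like each member with at least 200 UMIs and the 3 leading genes of a described cluster. Subtraction of hepatocyte-like RNA, scaling to class markers and counting cluster 8 as hepatocyte-like were added after seeing the data. Members and lists were chosen with earlier results of these data known. The scripts were tested on simulated data, in which subtraction recovered more changed genes but also called more unchanged ones. Gene positions are from GENCODE M21 (GRCm38) and promoters from RefSeq. Depth was 42715797 to 55632923 UMIs per library. The values of 1 gene of the pathway list are not reported here.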

Additional observations from a re-analysis of the deposited data

How the results depend on the processing

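The number of genes led by 1 class in every library was 1, became 0 when nuclei were thinned to 1000 UMIs and 2 with the mean of the CPM of nuclei, and ranged from 1 to 2 when a library was left out (2 without ND). In place of 15 gene and class pairs higher in both STZ-HFHC mice, 24 were counted at 1.5-fold, 3 at 4-fold and 4 when scaled to the summed markers of the class, and 12 to 22 when 1 STZ-HFHC library was left out. Pairs lower were 0, but 1 without limits on genes and mitochondrial counts, 5 with no filter on low counts, 2 after subtraction of the hepatocyte-like profile and 2 when scaled to the summed markers, and 0 to 1 when a library was left out (1 without STZ-HFHC 1). Over all nuclei 3 genes were higher, 0 at 4-fold, and 3 to 5 when a library was left out (5 without STZ-HFHC 2). Apart from subtraction, the share of all genes was not taken under these other settings, so their counts have no baseline. Single mean log2 ratios reversed as follows. Without limits, Tgfb2 became -1.10 and Tgfbr3 -0.52 in stellate or fibroblast-like nuclei. Scaled to markers, Tgfbr2 became -0.19 and Tgfbr3 -0.23 in those nuclei and Tgfbr2 -0.11 in macrophage-like nuclei. After subtraction Tgfbr2 became -0.30 in macrophage-like nuclei, and at Leiden resolution 0.5 Tgfb1 became -0.66 in T or NK cell-like nuclei. The cause was not tested. Tgfbr2 in hepatocyte-like nuclei ranged from 1.63 to 2.21 over 19 settings and was called in 18, all but 4-fold. The 19 include the main setting and several that could not undo the call. Subtraction leaves hepatocyte-like nuclei unchanged, and the 1.5-fold limit and looser count filters keep the same ratio under an easier rule. No paired analysis was possible because ND has a single library, with no replicate number shared by 2 mice of each group. Depth limits classes with few ND nuclei, since only 3 UMIs in the 26 dendritic-like nuclei already amount to 37.9 CPM.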
